A study of Homo sapiens with 4 samples.

Results

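The sgSNHG1-only distal peaks are regions of open chromatin that were called in SK-N-BE(2)C cells edited at SNHG1, that shared not even 1 bp with a control peak, and that lay farther than 3 kb from the transcription start site (TSS) of every gene in GENCODE version 44. Chromosomes 4, 9 and X were left out by the same rule. Of the 42682 peaks of the sgSNHG1 list, 9299 overlapped none of the 47610 control peaks, which is 21.8% of the list. Of these, 683 lay on chromosomes 4, 9 or X and 1595 lay within 3 kb of a TSS, which left 7021 members. They made up 28.8% of the 24358 distal sgSNHG1 peaks on the chromosomes used. The peak calls of both lists chose the members, so that their number, height and distance from genes are a description and were not tested.

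SK-N-BE(2)C is an established neuroblastoma line with MYCN amplification, grown in medium with 10% serum. Control cells were wildtype and carried a non-targeting guide RNA, and sgSNHG1 cells, which the labels call SNHG1 knockout, carried guide RNAs against SNHG1, the gene of a long non-coding RNA whose introns carry small nucleolar RNAs. Per the study, the editing lowered SNHG1 expression and did not remove it fully. The treatment protocol named Cas9, dual sgRNAs and a pSurrogate reporter for the cells, followed by puromycin and by sorting of single cells into clones, and the labels did not say how many clones each group held. Open chromatin was mapped by ATAC-seq, in which the Tn5 transposase inserts adapters into accessible DNA, in 2 replicates of each group. Peaks were called on the pooled replicates, so that each group gave 1 list, the spread between replicates is unknown, and the conditions could not be compared by a test. All intervals are 95% intervals and cover counting error within the lists only. Peaks at the promoters of MYCN, GATA3, ISL1, TBX2 and DBH, which mark adrenergic neuroblastoma cells, were present in both lists.

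Open chromatin far from promoters is where most enhancers lie, the elements through which transcription factors act on genes at a distance. Enhancers are opened by factors that recognise short DNA words. FOS and JUN family dimers, together called AP-1, bind the word TGACTCA and often open chromatin after a signal or a change of cell state. Basic helix-loop-helix factors, such as TWIST1, bind E-boxes, with CAGCTG and CATCTG preferred by neural and mesodermal factors and CACGTG by MYC proteins. GATA factors and homeodomain factors take part in the sympathetic programme of neuroblastoma. The gene an enhancer acts on cannot be read from its position alone, and the nearest gene is used below only as an address.

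Several members are printed here, from the plus strand of GRCh38 (5′ to 3′), chosen for the AP-1 word, an E-box or repeated sequence, and most of the 7021 have neither an AP-1 word nor repeated sequence. The first 5 hold the AP-1 word TGACTCA, or its reverse complement, in capitals. IMMP2L names the peak at chr7:111835136-111835298, GBE1 that at chr3:81743506-81743672, OPCML that at chr11:132576831-132576977, TMEM132C that at chr12:127559803-127559899, and CYRIA that at chr2:16411980-16412139, after the protein-coding gene with the nearest TSS. The peak named APBB1IP, at chr10:26472145-26472384, had no AP-1 word and shows an E-box CATCTG in capitals. The peaks named TPTE, at chr21:10692748-10692900, and DEFB115, at chr20:31106773-31106866, had the highest fold enrichments of all members, and they are shown because their sequences are repeated many times in the genome.
IMMP2L: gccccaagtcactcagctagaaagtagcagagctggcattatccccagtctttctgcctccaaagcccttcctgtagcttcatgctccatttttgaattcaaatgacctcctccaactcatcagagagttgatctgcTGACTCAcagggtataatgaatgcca
GBE1: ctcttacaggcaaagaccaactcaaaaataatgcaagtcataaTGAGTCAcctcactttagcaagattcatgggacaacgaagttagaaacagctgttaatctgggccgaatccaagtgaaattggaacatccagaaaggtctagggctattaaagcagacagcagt
OPCML: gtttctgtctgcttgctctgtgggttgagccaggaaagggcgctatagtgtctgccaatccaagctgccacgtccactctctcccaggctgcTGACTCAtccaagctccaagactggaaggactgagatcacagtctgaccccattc
TMEM132C: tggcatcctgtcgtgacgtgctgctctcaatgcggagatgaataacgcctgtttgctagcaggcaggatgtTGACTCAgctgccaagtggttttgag
CYRIA: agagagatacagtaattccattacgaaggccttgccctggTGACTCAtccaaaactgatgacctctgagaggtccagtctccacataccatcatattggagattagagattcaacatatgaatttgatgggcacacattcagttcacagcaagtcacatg
APBB1IP: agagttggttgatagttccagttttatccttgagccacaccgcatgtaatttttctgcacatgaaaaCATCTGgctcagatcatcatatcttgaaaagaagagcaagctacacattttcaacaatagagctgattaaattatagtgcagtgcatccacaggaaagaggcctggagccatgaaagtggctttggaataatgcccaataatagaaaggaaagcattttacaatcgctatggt
TPTE: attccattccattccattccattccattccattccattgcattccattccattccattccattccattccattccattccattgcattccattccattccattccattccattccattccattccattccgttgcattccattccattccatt
DEFB115: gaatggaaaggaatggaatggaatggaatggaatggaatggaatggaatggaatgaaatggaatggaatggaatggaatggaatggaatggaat

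The members were narrow and low peaks. Their median width was 138 bp (quartiles 110 and 184 bp), against 247 bp for the 17337 distal sgSNHG1 peaks that overlapped a control peak (shared distal peaks). The fragment pileup at the summit, recovered from the deposited values, had a median of 14 fragments (quartiles 12 and 17) over a median local background of 2.09 fragments. Shared distal peaks had a median pileup of 21 fragments. The fold enrichment, which is the pileup plus 1 over the local background plus 1 of the same list, had a median of 4.41 in members (quartiles 3.98 and 5.15) and of 5.88 in shared distal peaks. The median -log10 q was 4.74 in members and 9.63 in shared distal peaks, and 572 members (8.15%) reached a -log10 q of 10. The 10578 control peaks chosen by the mirrored rule (control-only distal peaks) stood at similar heights, with a median fold enrichment of 4.29 and a median -log10 q of 5.36. The narrowest control peak was 119 bp wide and the narrowest sgSNHG1 peak 92 bp, and 2391 members (34.1%) were narrower than any control peak.

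**Figure D1:**
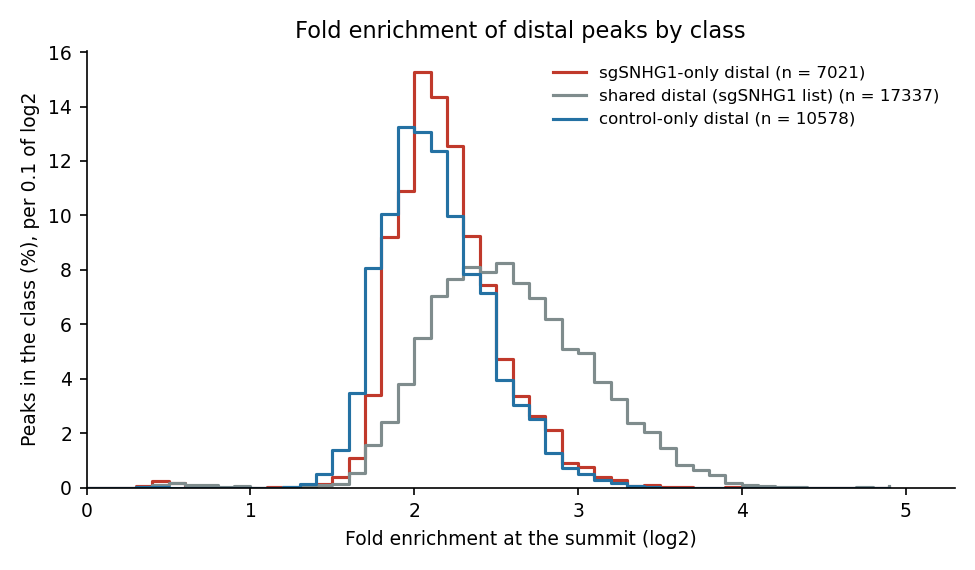
Histogram of the fold enrichment at the summit (log2, steps of 0.1) for the 7021 sgSNHG1-only, 17337 shared and 10578 control-only distal peaks, each as a percentage of its class. Both classes found in 1 list alone pile up at low folds (medians 4.41 and 4.29), while shared peaks extend to the right (median 5.88), and the small step at the far left of the sgSNHG1-only peaks holds the 39 members around MYCN.

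Most members stood a small margin above the height computed for a control peak. For each member, the smallest pileup that would have passed as a control peak at its local background was computed from the smallest -log10 p of the control list, 4.21, taken as its limit by assumption, after scaling pileups by 1.28, the ratio of the genome-wide backgrounds. The median needed pileup was 11 fragments, and the median member stood at 18.0 fragments on the same scale. The log2 ratio between them had a median of 0.62 (quartiles 0.45 and 0.84), and the median counting error of this ratio was 0.58. For the 2391 members narrower than 119 bp this height is no bound, since the control list held no peak of their width. The ratio was over 2 counting errors in 760 members (10.8%). Of these, 601 were also at least 119 bp wide and had a summit sequence with 1 copy in the genome. The same calls chose the members, and 0 members fell below the needed height. The ratio is therefore a description and no test, and none is given for control-only distal peaks.

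The limits of the rule cut through a continuum. The members nearest to a TSS were 3002 bp from that of C1orf35 and 3007 bp from a pseudogene near MAPKAPK2, while peaks 2998 bp from the TSSs of KCNE4 and ABHD16B were not members. A member 134 kb from SNX5 and one 46.1 kb from BMP7 touched a control peak without sharing a base, and peaks near ROR1 and ETV6 that shared 1 bp with a control peak were not members. In all, 187 members lay within 100 bp of a control peak and 774 (11.02%, interval 10.3 to 11.8%) within 1 kb of one. The median distance to the nearest control peak was 15.7 kb.

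Members lay in introns more often than elsewhere, and between genes more often than the other distal peaks. Their summits fell in introns in 58.9%, between genes in 35.6% and in exons in 5.50% of the 7021. The intergenic share exceeded that of shared distal peaks (30.97%) by 4.62 percentage points (interval 3.31 to 5.94) and that of control-only distal peaks (31.5%) by 4.09 points (interval 2.67 to 5.52). Exons held 2.71 points fewer members than shared distal peaks (-2.71, interval -3.37 to -2.02). The members' share of the distal sgSNHG1 peaks was 26.5% at 3 to 10 kb from the nearest TSS, 28.3% at 10 to 50 kb, 31.9% at 50 to 200 kb and 38.5% (interval 34.0 to 43.1%) beyond 200 kb. The share of control-only peaks among distal control peaks also went up over these distances, from 37.3% to 46.5%.

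Base composition set the members apart from both other classes. In the 201 bp around the summit, the median GC content was 46.8% in members, 51.2% in shared distal peaks and 50.2% in control-only distal peaks. The members' share of the distal sgSNHG1 peaks fell in every step of GC content, from 42.6% (interval 41.0 to 44.2%) below 40% GC to 16.1% (interval 15.1 to 17.2%) at 60% GC and above. In the control list, control-only peaks made up 40.3% of distal peaks below 40% GC and 34.4% at 60% GC and above, so that the shares of the 2 lists were close in AT-rich sequence and far apart in GC-rich sequence. A difference in GC bias between the libraries and an effect of the editing cannot be told apart here, since each group had 1 list. No member matched the mitochondrial genome over at least 50% of its length, and 0 of 7021 allows a share of up to 0.0427% by the limit of 3 counts and of 0.0547% by the Wilson interval.

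**Figure D2:**
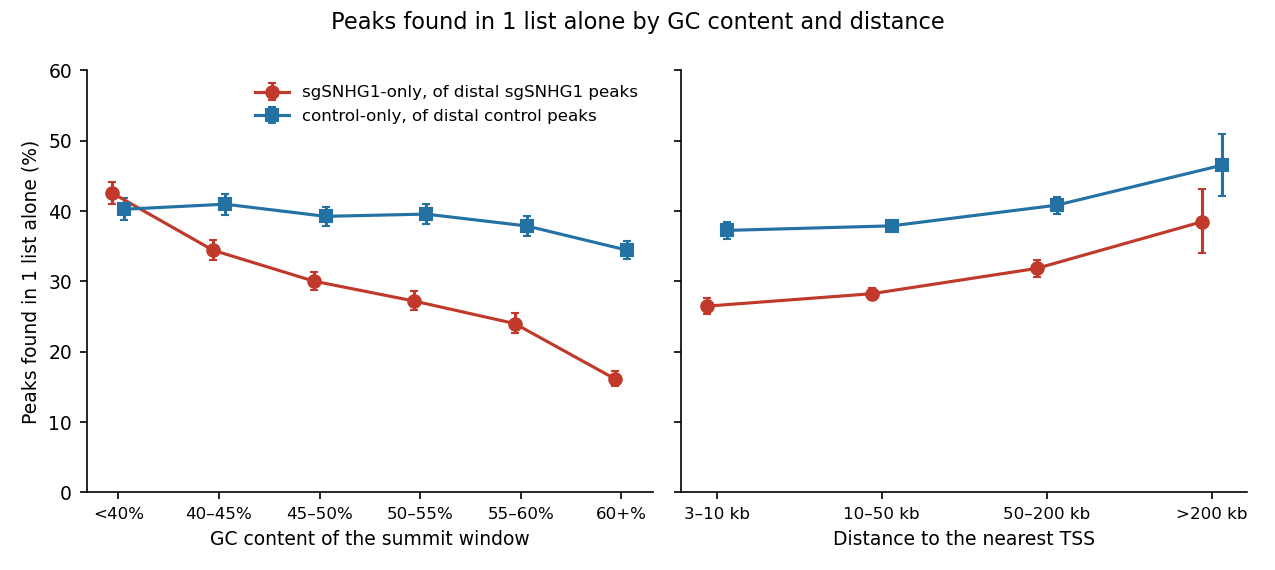
Share of peaks found in 1 list alone (y axis, %) by GC content of the 201 bp around the summit (left) and by distance to the nearest TSS (right), with 95% Wilson intervals as bars; circles are sgSNHG1-only peaks among distal sgSNHG1 peaks and squares control-only peaks among distal control peaks. The circles fall from 42.6% to 16.1% with rising GC while the squares stay between 41.0% and 34.4%, and both rise with distance.

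AP-1 words were more frequent in members than in control-only distal peaks. The word TGACTCA, counted on both strands within 100 bp of the summit, occurred in 563 members, or 8.02% (interval 7.41 to 8.68%). Control-only distal peaks held it in 4.54% (interval 4.16 to 4.95%), and the difference was 3.48 percentage points (interval 2.74 to 4.24). Shared distal peaks held it in 7.01%, which was 1.01 points below members (interval 0.285 to 1.77), and this smaller difference was not resolved within 50 bp of the summit (0.476 points, interval -0.083 to 1.07). By GC content, the difference from shared distal peaks was 1.22 points (interval 0.0439 to 2.45) in the lowest of 3 classes. It was not resolved in the middle (0.861, interval -0.468 to 2.28) and highest class (0.660, interval -0.592 to 2.06). By peak strength, the difference from shared distal peaks was 1.44 points (interval 0.246 to 2.60) below a -log10 q of 5. It was 3.02 points (interval 1.78 to 4.33) at 5 to 10, and was not resolved at 10 or more (1.39, interval -0.828 to 4.12). Windows of the same length 10 kb away held the word in 3.37% for members, 3.25% for shared distal peaks and 3.44% for control-only distal peaks. Members therefore stood at 2.38 times their shifted windows and control-only distal peaks at 1.32 times theirs.

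The difference in AP-1 from control-only distal peaks was present at every peak strength and GC content examined. Below a -log10 q of 5 the AP-1 share was 6.98% in members and 4.75% in control-only distal peaks. At a -log10 q of 10 or more it was 9.44% of 572 members and 3.74% of 1284 control-only distal peaks, a difference of 5.70 points (interval 3.26 to 8.53). In the lowest, middle and highest of 3 GC classes the differences were 3.03, 4.02 and 3.13 points, and each interval lay above 0. Among peaks over 10 kb from any peak of the other list it was 3.99 points (interval 3.04 to 4.97). The words sat at the summit: within 20 bp of it, members held 9.97 AP-1 words per 1000 peaks and 20 bp, shared distal peaks 8.998 and control-only distal peaks 5.53, against 3.53, 3.38 and 3.41 at 300 to 500 bp. The 563 members with the word resembled the other 6458 in median fold enrichment (4.63 and 4.41), width (138 bp in both) and GC content (46.8% in both), and they were spread over 520 nearest genes.

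**Figure D3:**
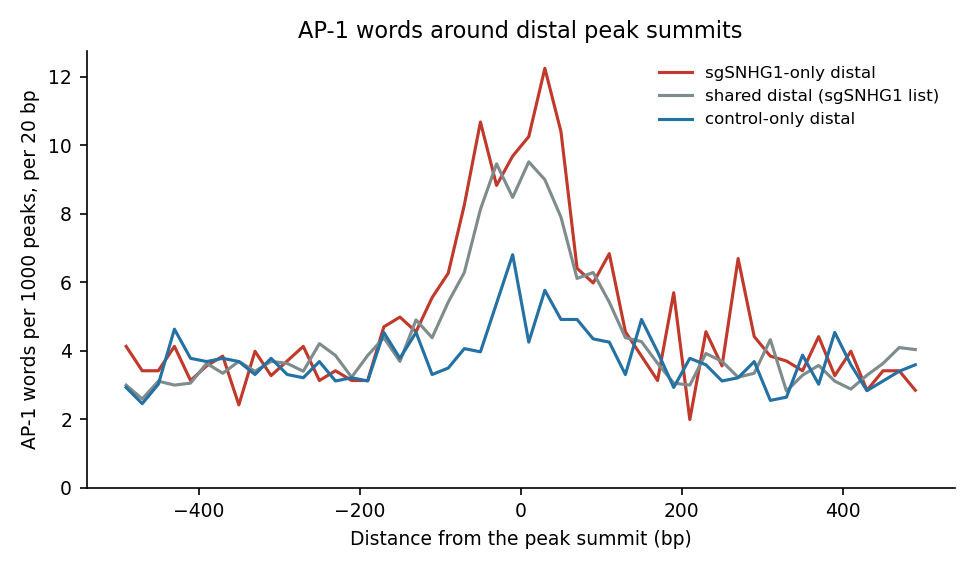
AP-1 words per 1000 peaks in bins of 20 bp (y axis) by distance from the peak summit in bp (x axis), 1 line per class of distal peak. The lines of sgSNHG1-only and shared peaks rise to about the same height at the summit (9.97 and 8.998 words within 20 bp), that of control-only peaks rises to 5.53, and all lie near 3.4 words beyond 300 bp.

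The E-boxes CAGCTG and CATCTG were, like AP-1, rarest in control-only distal peaks. With all GC contents pooled, the MYC word was rarest in members, but not in the lowest GC class. CAGCTG occurred in 23.5% of members, 24.4% of shared distal peaks and 17.9% of control-only distal peaks, against 7.63% in the members' shifted windows. Members exceeded control-only distal peaks by 5.66 points (interval 4.43 to 6.89) and did so in each of the 3 GC classes, by 5.16, 9.42 and 8.66 points. CATCTG occurred in 30.3% of members and 25.5% of control-only distal peaks, a difference of 4.77 points (interval 3.41 to 6.13) that was 7.58 points in the lowest GC class and 1.03 points (interval -1.387 to 3.503) in the highest. CACGTG, which MYC and MAX bind, was rarer in members (2.95%) than in shared (4.12%) and control-only distal peaks (3.86%). The difference from control-only distal peaks was not resolved within 50 bp of the summit (-0.286 points, interval -0.668 to 0.112). In the lowest, middle and highest GC classes it was 0.292 (interval -0.400 to 0.998), -0.564 (interval -1.50 to 0.424) and -1.58 points (interval -2.72 to -0.346). Of the 563 members with an AP-1 word, 274 (48.7%) also held CAGCTG or CATCTG, and of the members without it 46.2% did. Words were counted also where they share bases, as TGACTCA and CAGCTG do in the TMEM132C peak printed above.

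The remaining words differed between the classes by GC class, by small amounts or not beyond counting error. The words of GATA factors (AGATAA, also with T in the first place or G in the last) occurred in 36.2% of members, 33.1% of shared and 32.1% of control-only distal peaks, and members exceeded the control-only peaks by 4.13 points (interval 2.70 to 5.56). Within the 3 GC classes the members' difference from control-only distal peaks was 0.104, -1.69 and 0.875 points with every interval around 0, and the shifted windows of members held the words in 34.9%. The members' difference from shared distal peaks was below 0 in the lowest and middle GC classes, -3.28 (interval -5.56 to -0.997) and -5.44 points (interval -7.72 to -3.11). In the highest GC class it was 0.475 points (interval -1.29 to 2.36). The homeodomain word TAATTA occurred in 7.76% of members, the same as in their shifted windows, in 6.05% of shared and in 5.11% of control-only distal peaks. In the lowest GC class it was in 13.4% of members and 11.1% of control-only distal peaks, 2.35 points apart (interval 0.708 to 3.99). The TEAD word GGAATG differed between no pair of classes beyond counting error (11.1% of members, 10.8% of control-only distal peaks), and it is also part of the repeat unit of the TPTE and DEFB115 peaks printed above. The motif of CTCF, the factor that anchors chromatin loops, occurred in 4.86% of members, 4.99% of control-only and 6.19% of shared distal peaks. The shifted windows of members held it in 0.385%. The members' difference from shared distal peaks was -1.33 points (interval -1.94 to -0.699). Within the 3 GC classes it was -0.564, -0.138 and -0.532 points, with every interval around 0. Against control-only distal peaks the difference changed sign with GC content. It was -1.58 points (interval -2.45 to -0.713) in the lowest GC class and 2.65 points (interval 1.205 to 4.22) in the highest. In the middle class it was not resolved (0.297 points). The CREB and ATF word TGACGTCA was in 8 members (0.114%), as in their shifted windows, and in 0.438% of shared distal peaks. The nuclear receptor word AGGTCA was in 10.1% of members and 10.6% of control-only distal peaks, both below the shifted windows of members (12.8%). Shared distal peaks held this word in 8.53%, which was 1.62 points below members (interval 0.810 to 2.45). The RUNX word TGTGGT was in 13.4% of members, 12.8% of control-only and 11.8% of shared distal peaks, the last 1.59 points below members (interval 0.674 to 2.54). The nuclear receptor and RUNX words were not examined by GC class. The NFI motif was in 6 members.

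**Figure D4:**
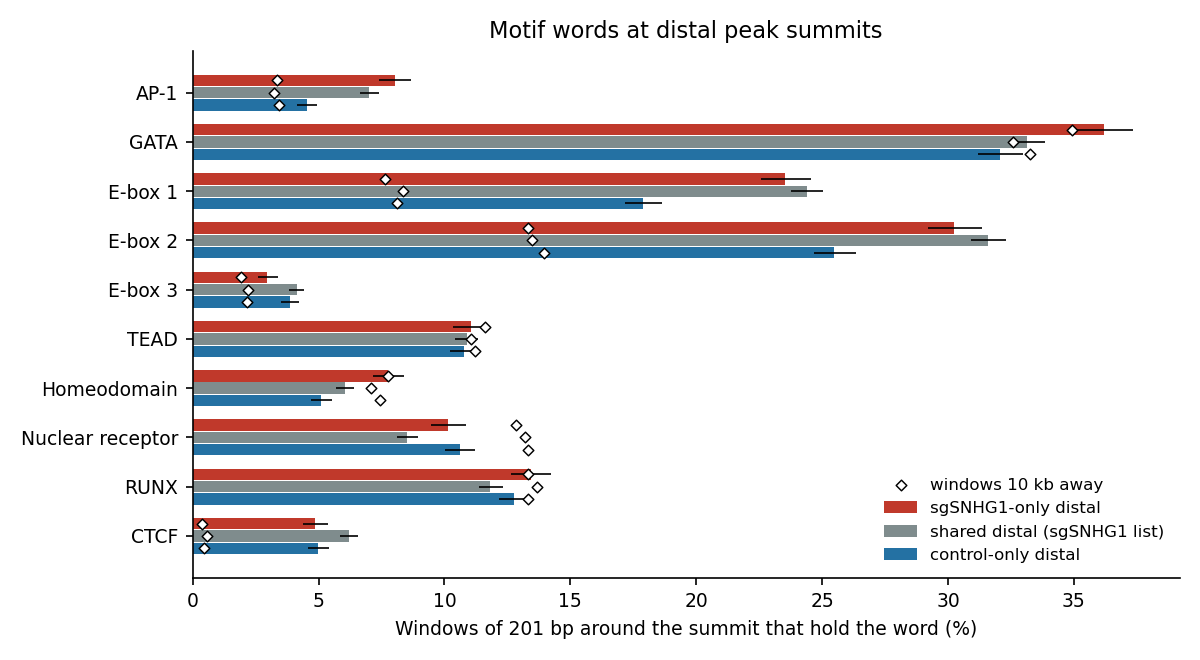
Share of 201-bp summit windows that hold a word (x axis, %) for 10 motifs, with bars for sgSNHG1-only, shared and control-only distal peaks, lines for 95% Wilson intervals, and diamonds for windows 10 kb away; E-box 1 is CAGCTG, E-box 2 is CATCTG and E-box 3 is CACGTG. AP-1, E-box 1 and E-box 2 stand above their diamonds and are lowest in control-only peaks (4.54%, 17.9% and 25.5%), while GATA, TEAD and RUNX bars of members lie near theirs.

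The members were found on all 20 chromosomes used, as 23.4 to 35.0% of the distal sgSNHG1 peaks of each. Chromosome 8 had the most per length, 4.91 per Mb, with 713 members that made up 33.1% of its distal sgSNHG1 peaks (interval 31.1 to 35.1%). It also held 1441 shared and 899 control-only distal peaks, so that control-only peaks outnumbered members there too. Of the chromosomes left out, chromosome 4 held 148 sgSNHG1-only and 995 control-only distal peaks, and chromosome 9 held 221 and 531.

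The nearest protein-coding TSS assigned the members to 3895 of 17577 protein-coding genes on these chromosomes (22.2%). Of these genes, 2414 had 1 member, 686 (3.90% of the 17577) had at least 3, 216 had at least 5 and 27 had at least 10. The 686 genes with several members accounted for 3017 members (43.0%). Genes with several members were those with much sequence around them: the stretch in which a gene has the nearest TSS had a median of 56.4 kb over all genes, 552 kb over genes with at least 3 members and 1744 kb over the 27 genes with at least 10. Over the 17577 genes, the Spearman correlation of the number of members was 0.50 with the length of this stretch, 0.45 with the number of shared distal peaks and 0.42 with the number of control-only distal peaks. These are correlations across genes, which share chromosomes and neighbours and are not independent replicates. Members were the only distal peaks of either list at 825 genes, and 2303 of the 3895 genes also had control-only distal peaks.

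MYCN, the MYC family gene amplified in this line, had the most members. It was nearest to 35 members, 100 shared and 9 control-only distal peaks, so that members were 25.9% of its distal sgSNHG1 peaks (interval 19.3 to 33.9%), near the 28.8% of all genes. Of the 35, 33 lay in a stretch of chromosome 2 in which the local background of the peaks exceeded 50 times the genome-wide background. With 6 members of the neighbouring gene CYRIA, which encodes a RAC1-binding regulator of actin, this stretch held 39 members between chr2:15966221-16412139, beside 132 shared and 8 control-only distal peaks. The 39 members had pileups of 278 to 589 fragments over a median background of 271, and their fold enrichments were 1.27 to 1.55. These were the only members with a fold enrichment under 2, and the lowest outside the stretch was 2.25. They were 22.8% of the 171 distal sgSNHG1 peaks there (interval 17.2 to 29.7%). Their median distance to a control peak was 902 bp and the longest 6372 bp. The MYCN peak of highest pileup, chr2:15986459-15986681, had 589 fragments and a fold enrichment of 1.299. The AP-1 peak printed above under CYRIA belongs to this stretch, with 381 fragments and a fold enrichment of 1.42.

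CSMD3 and RALYL followed, each the nearest gene over a long stretch (2917 and 1632 kb). CSMD3, which encodes a large transmembrane protein with CUB and Sushi domains, had 20 members, 8 shared and 22 control-only distal peaks. The members of CSMD3 had fold enrichments of 3.67 to 8.45, and the highest, with 28 fragments, lay 303 kb from the TSS between genes. RALYL, which encodes an RNA-binding protein, had 17 members, 8 shared and 9 control-only distal peaks, and its members reached a fold enrichment of 6.99. KCNV1, a silent potassium channel subunit, had 12 members, 8 shared and 15 control-only distal peaks. These 3 genes are on chromosome 8, and their shared distal peaks can be set beside the members. The median log2 ratio of sgSNHG1 to control pileup after background scaling was 0.39 for the 8 pairs of CSMD3 and 0.36 for the 7 pairs of RALYL. It was 0.05 for the 8 pairs of KCNV1 and 0.04 over all distal pairs. The median log2 ratio of fold enrichments of the same pairs was 0.18 for CSMD3, 0.19 for RALYL and -0.04 for KCNV1. On other chromosomes the pileup ratio was 0.36 for TMEM132C and 0.31 for BRINP3, but 0.04 for ROBO1. These genes were chosen for their numbers of members, and the ratios were not tested.

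On chromosome 3, members, shared and control-only distal peaks were 15, 15 and 15 for EPHA3, an ephrin receptor, 15, 14 and 18 for GBE1, the glycogen branching enzyme, and 11, 16 and 24 for ROBO1, a receptor for the SLIT guidance cues. Of the 15 EPHA3 members, 5 had a summit sequence with more than 1 copy in the genome and 4 of these had 10 or more (median count of its 31-base words). Near EPHA3 and GBE1 the numbers of peaks found in 1 list alone were similar, and near ROBO1 control had more. The GBE1 member at chr3:82044993-82045182 reached a fold enrichment of 9.99 with 32 fragments, 283 kb from the GBE1 TSS in an annotated intron. BCHE, which encodes butyrylcholinesterase and lies farther along this chromosome, had 13 members beside 1 shared and 9 control-only distal peaks. The BCHE members had 9 to 20 fragments and fold enrichments of 3.43 to 6.39, and 1 of them, 252 bp wide and 17.3 kb from the TSS, lay 41 bp from a control peak.

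CRIM1, a transmembrane protein that binds bone morphogenetic proteins, had 12 members and no shared distal peak, beside 7 control-only distal peaks. None of the 12 CRIM1 members reached a -log10 q of 5, their pileups were 10 to 14 fragments, and their fold enrichments 3.20 to 4.50. They lay 62.8 to 1315 kb from the TSS. TMEM132C was a gene of stronger members: 11 of its 13 reached a -log10 q of 5, and their fold enrichments were 3.87 to 6.41 with 10 to 20 fragments. It had 11 shared and 7 control-only distal peaks. OPCML, an adhesion molecule of the IgLON family, had 12 members, 20 shared and 7 control-only distal peaks, and 9 of the 12 members lay inside the gene. BRINP3, a neural gene of the family induced by retinoic acid, had 11 members and 8 shared distal peaks but 1 control-only distal peak.

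TPTE, which encodes a transmembrane phosphatase, and DEFB115, a beta-defensin gene, had 13 members each. Of these, 6 of TPTE and 7 of DEFB115 had a summit sequence with more than 1 copy in the genome (the median genome count of the 31-base words in the 101 bp around the summit). The counts of the 15 genes together show that members came with shared and control-only distal peaks at all of them except CRIM1, which had no shared peak.

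**Figure D5:**
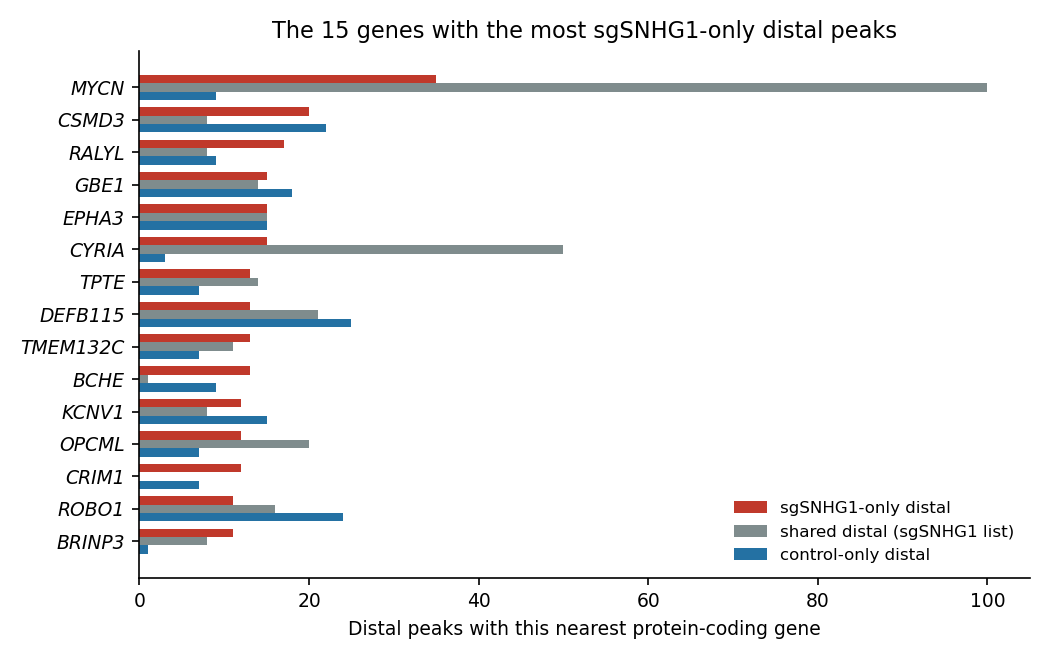
Number of distal peaks (x axis) with each of the 15 genes as nearest protein-coding gene, for sgSNHG1-only, shared and control-only distal peaks. MYCN has 35 members and 100 shared peaks, BCHE 13 members and 1 shared peak, and CRIM1 12 members and no shared peak.

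The 3 members with the highest fold enrichments had many copies in the genome. The TPTE peak printed above had a fold enrichment of 33.8 with 152 fragments, and its summit sequence had 159 copies. Its 153 bp held GGAAT or the reverse complement 27 times. The DEFB115 peak had a fold enrichment of 16.2, 43 fragments and 144 copies, and a peak at chr17:24421397-24421567 had a fold enrichment of 15.8, 42 fragments and 1081 copies. Only 56 members (0.798%) had 10 or more copies and 247 (3.52%) more than 1, and the share with 10 or more was 0.775% in control-only distal peaks. Among members with 1 copy, the highest fold enrichment was 12.9, with 55 fragments, in an intron 214 kb from the TSS of RSPO2, a secreted activator of WNT signalling. It was followed by the IMMP2L peak printed above (11.6, 33 fragments, 20012 bp from a control peak) and the APBB1IP peak (11.4, 34 fragments, 137 kb from a control peak). IMMP2L encodes a mitochondrial peptidase and APBB1IP an adaptor of integrin activation. By the computed limit the IMMP2L peak would have needed 10 fragments to be called in control. It stood at 42.3 on the control scale, a log2 ratio of 2.08 (counting error 0.52) that was not tested. Further members with 1 copy lay 425 kb from LRR1 (11.03), 969 kb from TUBA3C (10.8), 560 kb from USP24 (10.8) and 124 kb from LHX4 (10.7), a LIM homeodomain gene, with fold enrichments in parentheses. Outside the MYCN stretch the highest pileup was 459 fragments, 220 kb from SHCBP1 on chromosome 16, with a fold enrichment of 7.89 and 3 copies. The members farthest from any TSS lay on chromosomes 1 and 15, up to 3593 kb away, and their summit sequences had 4 to 15 copies.

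Most members stood alone. With gaps of at most 20 kb, 659 chains of at least 2 members held 1435 members (20.4%), and 5586 had no other member so close. The longest chains, of 13 and 9 members, lay in the MYCN stretch. A chain of 5 at chr1:2654482-2688156, near MMEL1, a neprilysin-like peptidase gene, had a median fold enrichment of 6.99 with 1 shared and 1 control-only distal peak in the same span. Of these 5 MMEL1 members, 4 had a summit sequence with more than 1 copy and 4 were narrower than any control peak. A chain of 5 in the MYCN stretch spanned 44.4 kb, and a chain of 4 near TMEM64 on chromosome 8 spanned 26.9 kb with no other distal peak.

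Gene lists of the neuroblastoma programme were set beside the 28.8% of all distal sgSNHG1 peaks. The core regulatory genes on these chromosomes (MYCN, GATA3, ISL1 and TBX2) had 44 members and 123 shared distal peaks, 26.3% (interval 20.3 to 33.5%), and 35 of the 44 were those of MYCN. GATA3 had 4 members, TBX2 had 3 and ISL1 had 2. The 18 adrenergic transcription factors had 73 members (26.0%, interval 21.2 to 31.4%) and 208 shared distal peaks. MYCN is in this list too, and 35 of the 73 members and 100 of the 208 shared peaks were those of MYCN. SOX11 had 11 members, with 22 shared distal peaks, and ZNF536 had 5 members. The 32 mesenchymal factors had 28 members (21.2%, interval 15.1 to 28.9%), led by TCF7L2 with 6, SOX9 with 5, MEOX2 with 3 and PRRX1 with 2. The 11 genes that encode AP-1 subunits had 3 members and 11 shared distal peaks, with 2 members near JUNB and 1 near BATF3. Control-only distal peaks numbered 21 for the core genes, 77 for the adrenergic factors, 57 for the mesenchymal factors and 11 for the AP-1 genes. Of the mesenchymal factors, TCF7L2 had 8 control-only distal peaks, SOX9 had 13, and MEOX2 and PRRX1 had 0. With control peaks within 500 bp counted as overlapping, the core genes lay below the share of all genes by 6.76 points (-6.76, interval -12.1 to -0.0752) and the adrenergic factors by 5.53 points (-5.53, interval -9.88 to -0.392). Both lists hold the peaks of MYCN and GATA3, so that these differences are not separate results. Under the rule itself, 1 of the 13 lists had a share whose interval left out 28.8%.

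That list was catecholamine synthesis and storage, whose 12 genes had 21 control-only distal peaks. They had 10 members and 55 shared distal peaks, 15.4% (interval 8.58 to 26.1%). The 10 comprised 3 of CHGB and 3 of CHGA, which encode granins of the secretory granule, 2 of RET, the GDNF receptor, and 1 of SLC18A1, a vesicular monoamine transporter, and 1 of SLC6A2, the noradrenaline transporter, which was named after its values were seen. CHGA had 10 shared distal peaks and RET 12, while CHGB had no distal peak but its 3 members, with a median fold enrichment of 6.45. The interval of the list reached the share of all genes when both lists were kept at a -log10 q of 5 or of 10, beyond 10 kb from a TSS, and without peaks narrower than 119 bp.

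Neuronal lists had large numbers of members, and the intervals of their shares held that of all genes. Each of these lists had more control-only distal peaks than members. Axon guidance genes had 94 members (33.0%, interval 27.8 to 38.6%), with 15 of EPHA3, 11 of ROBO1, 10 of EPHA6 and 7 of ROBO2. They had 155 control-only distal peaks, with 14 of EPHA6 and 15 of ROBO2. Synaptic and neuronal adhesion genes had 95 members (28.8%), with 12 of OPCML, 11 of CADM2, 10 of NTM and 8 of NEGR1. The adhesion genes had 143 control-only distal peaks, with 7 of OPCML, 10 of CADM2, 5 of NTM and 1 of NEGR1. Cadherins had 25 members (31.3%) and 44 control-only distal peaks, and CDH8, with 5 members, 4 shared and no control-only distal peak, had the most members. Neuronal channels and glutamate receptors had 44 members (34.9%, interval 27.2 to 43.6%), with 7 of the potassium channel KCNMA1 and 4 each of GRIA4 and CACNA2D1. They had 57 control-only distal peaks, with 8 of KCNMA1 and 9 of CACNA2D1. GRIA4, an AMPA receptor subunit, had a median fold enrichment of 6.76 over its 4 members, beside 1 shared and 2 control-only distal peaks. Under single alternatives 3 of these lists lay above the share of all genes: cadherins by 12.4 points (interval 1.81 to 24.7) at a -log10 q of 5, neuronal channels by 8.05 points (interval 0.0952 to 17.3) without peaks narrower than 119 bp, and axon guidance by 5.91 points (interval 0.780 to 11.4) with protein-coding TSSs.

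Neural crest factors had 21 members (32.8%), with 5 each of SOX5 and ETS1 and 2 each of TWIST1 and ZIC1. The 5 members of SOX5 were its only distal peaks, with a median fold enrichment of 4.78, while ETS1 had 23 shared distal peaks. Retinoid and NR2F genes had 15 members (31.9%), with 3 of NR2F1 and 2 each of NR2F2, CYP26B1 and RARA. Extracellular matrix and integrin genes had 31 members (36.0%, interval 26.7 to 46.6%), with 4 each of LAMA2 and COL1A2 and 3 of ITGA4, and LAMA2 had no shared distal peak. Cell cycle genes and MYC targets had 12 members (24.0%), 10 of them nearest to MYC, which had 17 shared and 7 control-only distal peaks. Control-only distal peaks numbered 27 for neural crest factors and 18 for retinoid and NR2F genes. They numbered 27 for extracellular matrix and integrin genes and 26 for cell cycle genes and MYC targets.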

How the data were processed

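SK-N-BE(2)C cells were assayed by ATAC-seq in 2 control and 2 sgSNHG1 samples. Per the study's methods, the authors trimmed reads with cutadapt, aligned them to GRCh38 with BWA, marked duplicates with Picard, dropped duplicate, multiply mapped, mitochondrial and blacklisted reads, shifted read ends with deepTools, combined the replicates of a group and called peaks with MACS2; versions and the calling threshold are not given in the sources used here. The deposited score, which entered no result, is 10 times the -log10 q cut to a whole number. The deposited fold enrichment is a ratio, the summit pileup plus 1 over the local background plus 1, both of the same list. The deposited -log10 p is that of a Poisson test of the pileup against that background, and the deposited -log10 q is its value adjusted for multiple testing. Pooling leaves the spread between replicates unknown.

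From these files, pileup and background were solved for each peak, within 0.001 of the deposited -log10 p for 47609 control and 42682 sgSNHG1 peaks. The smallest background, 2.20 fragments in control and 1.72 in sgSNHG1, served as the genome-wide background, and fragment totals of the samples were not used. Overlap, distance and nearest gene were computed with Python 3.11.15, numpy 2.4.6 and pandas 2.3.3 and tested on simulated intervals, and the overlap was checked against bedtools 2.31.1. Sequences came from GRCh38 through pysam 0.24.0, and mitochondrial matches from BLAST 2.17.0. Shares have Wilson intervals and differences of shares Newcombe intervals. Genes named are the 15 with the most members (ties by summed fold enrichment), those nearest to the 10 members of highest fold enrichment and of highest pileup, the 5 largest chains, up to 4 genes per list, the AP-1 members of those 15 genes, the 3 members farthest from a TSS and those at the limits of the rule. The highest members with 1 copy were added after the values were seen. The members, the 13 gene lists and the 12 motifs were chosen with earlier results of these data known. Alternatives were other thresholds, overlaps, distances, TSS sets, chromosomes, windows and gene assignments. A marker gene that was examined is not reported here.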

Additional observations from a re-analysis of the deposited data

Results flagged for a closer look

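Chromosome X was left out by the rule that chose the members. It held 186 sgSNHG1-only and 152 control-only distal peaks, and it is listed because its sgSNHG1-only peaks outnumbered those of control, while members were outnumbered by control-only distal peaks over the chromosomes used (7021 and 10578). The sgSNHG1-only share of its distal sgSNHG1 peaks was 38.8% (interval 34.6 to 43.3%). The difference was not tested, and no chance level is known with 1 list per group.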

How the results depend on the processing

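No paired analysis was possible because the replicates of each group were combined before peaks were called, so that replicate numbers belong to no column; for the same reason leaving out a replicate was not run. The AP-1 difference from control-only distal peaks had an interval above 0 under 9 of 9 alternatives (2.18 to 4.96 points). The difference from shared distal peaks did not with both lists limited to a -log10 q of 10 or more (1.29 points), with the TSS of every transcript (0.748) and within 50 bp of the summit (0.476).

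With this limit at 5 there were 3997 members (22.5% of distal sgSNHG1 peaks), 276 genes with at least 3, a median GC difference from control-only peaks of -3.98 points (main value -3.48) and 7.21% within 1 kb of a control peak. At 10 there were 1867 members (20.9%), 1464 genes with at least 1 and 64 with at least 3, 33.6% between genes, a GC difference of -4.48 and 4.12% within 1 kb. These limits also remove control peaks, so that a member may overlap a weaker one. Counting peaks within 500 bp as shared gave a share of 26.5% and 3.31% within 1 kb. Beyond 10 kb the share was 29.6%. The TSS of every transcript gave 30.6%, with 39.7% between genes, a GC difference of -2.49 and 10.1% within 1 kb, and protein-coding TSSs gave 27.9%. Without sgSNHG1 peaks narrower than 119 bp there were 4630 members (22.8%), 383 genes with at least 3 and a GC difference of -3.98. Within 50 bp of the summit the GC difference was -2.97. The number of gene lists whose interval left out the share of all genes, 1 as reported, was 0 at a -log10 q of 10 and beyond 10 kb, 3 with the 500 bp rule (core, adrenergic and catecholamine genes) and 2 with protein-coding TSSs (axon guidance added). It was 1 at a -log10 q of 5 and without narrow peaks, but there the list was cadherins and neuronal channels in place of catecholamine genes. Pileups of 12 to 17 fragments limit what single members can show.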
